A study of Rattus norvegicus with 63 samples.

Results

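The question here was whether a week of stimulant injections given beforehand altered what the same stimulant later did to gene expression in the rat prefrontal cortex (PFC). The answer was read as a difference of effects: the stimulant effect in pretreated rats (stimulant arrays minus the saline arrays of cohort 2) minus the stimulant effect in drug-naive rats (stimulant arrays minus the saline arrays of cohort 1), averaged over amphetamine, methamphetamine and methylphenidate. The arrays were chosen by their labels alone, as the PFC arrays of both saline groups, of the naive groups conditioned with 5 mg/kg and of the pretreated groups, which gave 26 of the 63 arrays of the series. All differences are on a log2 scale, where 1 stands for a 2-fold difference, and a positive difference of effects means that the stimulant arrays stood higher against their saline arrays after pretreatment than without it.

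All animals were male Wistar rats, 4 weeks old on arrival and 6 weeks old when injections began. Injections were intraperitoneal, 2 a day for 7 days, and were followed by conditioned place preference (CPP, a test in which an animal learns to prefer a compartment paired with a drug) and then by intravenous self-administration. The naive stimulant groups received saline for that week, were conditioned with amphetamine, methamphetamine or methylphenidate at 5 mg/kg, and then self-administered the same drug. The pretreated groups received their stimulant at 5 mg/kg for that week, were conditioned with it at 5 mg/kg and self-administered it. Each infusion delivered 0.1 mg/kg for both amphetamines, while methylphenidate was given as 0.25 mg per 0.1 ml, so the dose is matched between the amphetamines and not with methylphenidate. Both saline groups are labelled with saline at every stage, with 5 arrays in cohort 1 and 3 in cohort 2, and each stimulant group has 3 arrays. The stimulant rats profiled were those that self-administered most robustly, their brains were taken a day after the last session, and the time of day is not given in the sources used here. The labels speak both of single rats and of RNA pools, so p-values measure the spread between arrays, which may be technical. Pretreatment was given only in cohort 2, so a stimulant group's pretreatment and its cohort cannot be told apart without the saline groups, which had no stimulant. The naive saline arrays fall into the array sets described below, so the saline groups differ by set as well as by cohort.

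As background, amphetamine and methamphetamine, which differ by 1 N-methyl group, enter monoamine terminals and release dopamine and noradrenaline, whereas methylphenidate blocks the reuptake of these transmitters. In the prefrontal cortex both act on circuits for attention, working memory and the control of drug seeking, and repeated exposure is known for lasting changes in later responses, called sensitization or tolerance. The molecular clock appears repeatedly below: in it, BMAL1 and CLOCK drive the Period (Per) and Cryptochrome (Cry) genes, whose proteins repress their own transcription, and NR1D1 and NR1D2 repress Bmal1. Clock genes also answer to hormones and neuronal activity, since Per1 is a known target of glucocorticoids and of the cAMP pathway.

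The signals were Affymetrix MAS5 values scaled so that the trimmed mean of each array was 500.1 to 500.2, and their number of arrays limits the precision. Cortical neuron markers (mean of 7 genes, including the glutamate transporter Slc17a7) lay between 8.67 and 9.63 on the 26 arrays and striatal markers (mean of 7 genes, including the dopamine receptor Drd1) between 7.87 and 9.34, within which the striatal marker means of the striatal arrays did not fall, apart from 1 array of a 1.25 mg/kg group, not used here, with striatal markers at 9.02 and cortical markers at 9.30. A hybridization control, the bacterial BioB transcript that is spiked in before hybridization, split the naive arrays. It read 9.35 to 10.16 (log2) in naive saline 1 to 3 and naive methamphetamine, 5.96 to 6.61 in naive saline 4 and 5, naive amphetamine and naive methylphenidate, and 9.01 to 10.06 in all cohort 2 arrays. These are called the high-BioB and low-BioB sets below; within the high set only methamphetamine, and within the low set only amphetamine and methylphenidate, can be set against naive saline, with all cohort 2 arrays kept. The labels do not name what split the sets, and its part in the results was not tested beyond the values with the set as a block and within each set. Naive saline 4 and 5 stood further apart in haemoglobin beta (Hbb), at 10.19 and 9.22 against 12.10 to 13.77 in naive saline 1 to 3. The log2 ratio of 3′ to 5′ Gapdh signal also differed between the sets. It was 0.251 to 0.369 in naive saline 1 to 3 and 1.022 to 1.199 in naive saline 4 and 5. It was 0.325 to 0.585 in naive methamphetamine, 0.584 to 1.035 in naive amphetamine and methylphenidate and 0.63 to 0.898 in cohort 2. Median signal was 133.1 to 143.4 in the high set, 120.4 to 136.6 in the low set and 120.4 to 138 in cohort 2. The part of the Gapdh ratio in the results was not tested. Over replicate pairs within a group the correlation of log2 signal was 0.940 to 0.958.

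Of 8530 genes tested, 1 had a difference of effects that passed an adjusted p of 0.05 (0.0117%), and it was higher after pretreatment. This was Per1, a core repressor of the circadian clock. No gene passed in the lower direction, where limma gave 209 genes at an unadjusted p under 0.05 (2.45%), against 172 in the higher direction (2.02%) and 381 in all (4.47%). Over all genes the median difference was -0.01, and 46.2% lay above 0. The median standard error was 0.149, and for 8405 of the 8530 genes the 95% interval left out a difference of 1 in either direction.

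Per1 had log2 signals of 9.56, 9.53, 9.61, 9.68 and 9.40 on the naive saline arrays. On the naive stimulant arrays it read 9.18, 9.19 and 8.90 with amphetamine, 9.40, 9.44 and 9.71 with methamphetamine and 8.87, 9.23 and 8.80 with methylphenidate. Naive stimulant arrays therefore lay mostly under their saline arrays, with 1 of 9 above the saline mean. In cohort 2 the saline arrays read 8.91, 8.39 and 8.41, and the pretreated arrays read 8.94, 8.92 and 9.25 with amphetamine, 8.56, 9.06 and 9.03 with methamphetamine and 9.31, 9.53 and 9.34 with methylphenidate. Here 8 of 9 stimulant arrays lay above the saline mean, with methylphenidate clear of all 3 saline arrays. The stimulant effect on Per1 was -0.36 ± 0.10 (SE) in naive rats (adjusted p = 0.263) and 0.53 ± 0.12 in pretreated rats (adjusted p = 0.0863), and neither passed alone. Their difference was 0.90 ± 0.16 (95% interval 0.58 to 1.22, adjusted p = 0.0279, limma with Benjamini-Hochberg adjustment). With the BioB set as a block the difference for Per1 was 0.89 (adjusted p = 0.0373), within the low-BioB set (amphetamine and methylphenidate) 1.16 (adjusted p = 0.0110) and within the high-BioB set (methamphetamine) 0.36 (adjusted p = 0.997). The call was lost with a replicate block (adjusted p = 0.0566), with array median centring (0.148) and in 14 of 26 runs that left out 1 array, where the difference ran from 0.81 to 1.07 and the adjusted p reached 0.500 without cohort 2 saline 2 and 0.235 without cohort 2 saline 3.

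**Figure D1:**
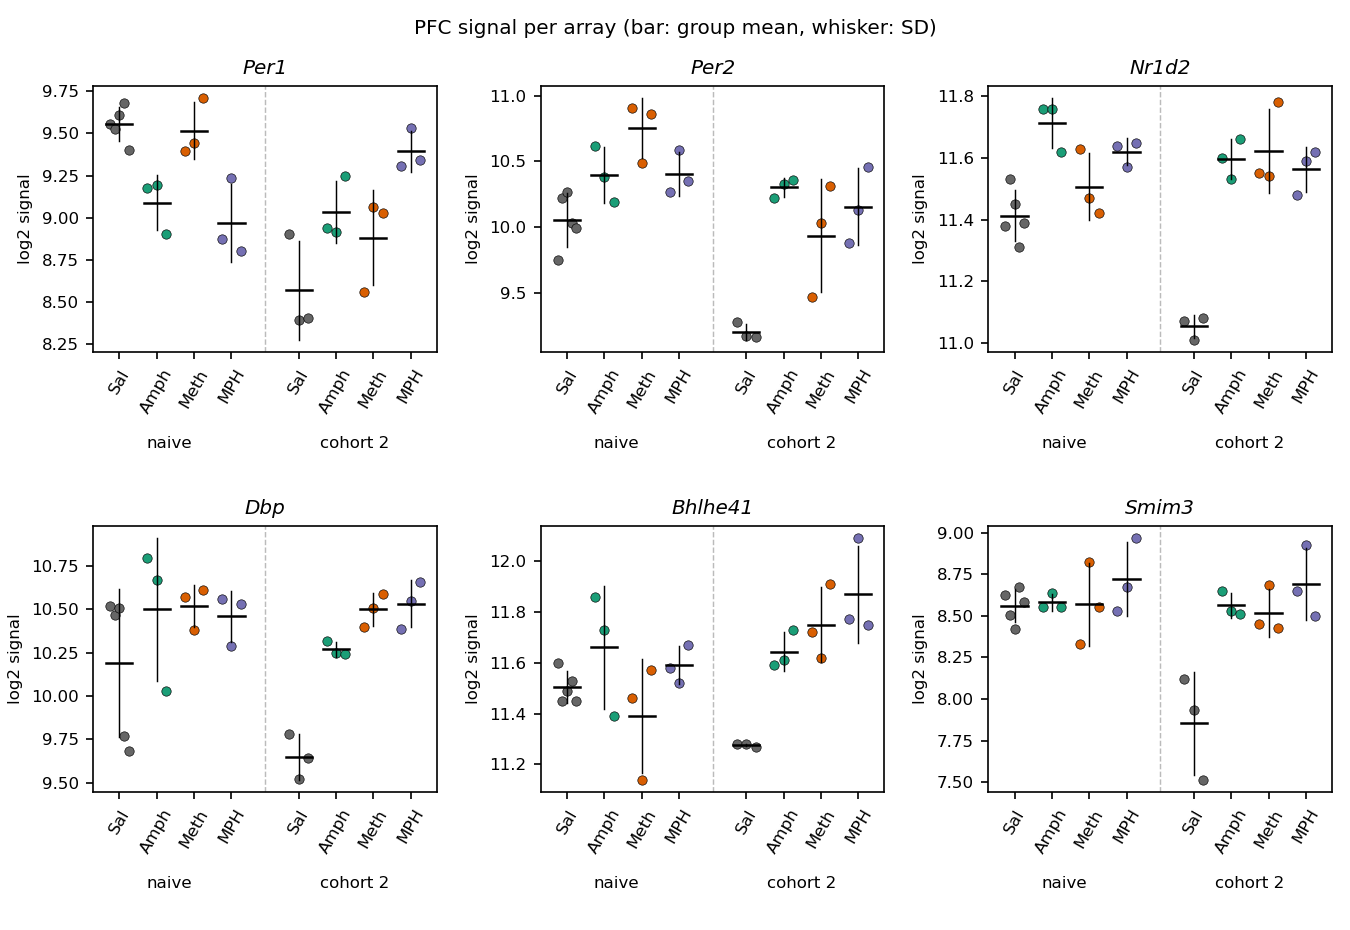
Log2 signal of Per1, Per2, Nr1d2, Dbp, Bhlhe41 and Smim3 on each of the 26 prefrontal arrays, with 1 point per array in the 8 groups of the contrast (Sal, saline; Amph, amphetamine; Meth, methamphetamine; MPH, methylphenidate) and lines for the group mean ± SD. The 3 cohort 2 saline arrays sit lowest or near lowest for these genes, at 8.39 to 8.91 for Per1 and 11.01 to 11.08 for Nr1d2, and the pretreated stimulant arrays lie mostly above them.

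By arithmetic, the difference of effects equals the cohort difference among stimulant arrays minus the cohort difference among saline arrays. For Per1 the stimulant arrays differed by -0.09 (95% interval -0.26 to 0.08, adjusted p = 0.528) between cohorts, a test added after the values were seen, whereas the saline arrays of cohort 2 were lower by -0.99 ± 0.13 (adjusted p = 0.000263). On average over the stimulants, nearly all of the Per1 difference thus came from the saline arrays. Only the mean level of Per1 under stimulants was close in both cohorts. Its pretreated arrays lay below the naive ones with methamphetamine, lay above them with methylphenidate and overlapped them with amphetamine. The saline part was also the larger one for most of the genes with the smallest p. Of 16 such genes, 8 in each direction, 14 had a larger saline part than stimulant part. The median size of the saline part was 0.632 and that of the stimulant part 0.128. The saline difference itself passed for 10, against 1.86% of all genes. These genes were chosen by a difference that contains the saline part, so their counts and sizes are not independent of that choice. The saline means rest on fewer arrays than the stimulant means and so carry more error; over all genes the saline differences had an SD of 0.216 and the stimulant differences 0.161. Both saline groups received saline throughout, so the saline part is a gap between cohorts in rats that had no stimulant. It is not the cohort alone, since the naive saline arrays come from both BioB sets. For Per1 the naive saline arrays of both sets (9.40 to 9.68) lay above the cohort 2 saline arrays (8.39 to 8.91).

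Besides Per1, the genes with the smallest p in the higher direction did not pass and are given as values. Nr2f1, a nuclear receptor that patterns the cortex, had a difference of 0.61 ± 0.13 (adjusted p = 0.178). Its naive saline arrays read 10.01, 9.93, 9.92, 9.90 and 9.84, above all 9 naive stimulant arrays (lowest 9.34, median 9.41, highest 9.74), whereas the cohort 2 saline arrays at 9.52, 9.45 and 9.48 lay within the range of the pretreated arrays (9.42, 9.65, 9.85). Smim3, a small membrane protein gene, had a difference of 0.67 (adjusted p = 0.312), with cohort 2 saline arrays at 8.12, 7.93 and 7.52 below all 9 pretreated arrays (lowest 8.43), while the naive groups overlapped. Smoc1, a secreted calcium-binding matrix protein, differed by 0.66, the antiproliferative gene Tob2 by 0.57, the clock repressor Nr1d2 by 0.34, Gpnmb, a glycoprotein of microglia and macrophages, by 0.72 and leukotriene C4 synthase (Ltc4s) by 0.73.

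In the lower direction the largest difference of the 8 named was that of Dnal1, a light chain of axonemal dynein, at -1.17 ± 0.25 (adjusted p = 0.205). Dnal1 read 7.86 to 8.89 on the 5 naive saline arrays and 8.63 to 10.14 on the 9 naive stimulant arrays, and its naive effect of 0.98 (adjusted p = 0.0149) was the 1 call of the naive stimulant effect (0.0117%, with 650 genes or 7.62% at an unadjusted p under 0.05). Without naive saline 4 and 5 the calls of the naive effect at an adjusted p of 0.05 rose from 1 to 375. That run keeps only saline arrays of the high-BioB set, while naive amphetamine and methylphenidate are in the low set. In cohort 2 the saline arrays already stood at 9.30, 9.29 and 9.43 and the pretreated arrays between 8.70 and 10.01, with 2 of 9 above the saline mean. The stimulant arrays of both cohorts covered similar levels, and the saline arrays were higher in cohort 2 by 1.03 (adjusted p = 0.0168). LOC100911627, annotated by RefSeq as a long non-coding RNA, differed by -0.96 ± 0.21 (adjusted p = 0.205), with all 9 naive stimulant arrays above the naive saline mean and 2 of 9 pretreated arrays above the cohort 2 saline mean. The others were Dazap1, an RNA-binding protein gene, at -0.92, the zinc-finger genes Zbtb43 at -0.43 and Zmym6 at -0.50, Tm9sf3 at -0.45, the splicing helicase Dhx15 at -0.41 and Tex30 at -0.56. None of these 8 passed the test of the difference. At other probe sets of lower signal, Dnal1 was at -0.37 ± 0.36 and Tm9sf3 at 0.29 and 0.11.

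The clock genes held the only call and most of the genes called in pretreated rats. Of 24 listed clock genes 19 were tested: 11 had a difference above 0 and 8 below, with a median of 0.15 against -0.01 over all genes, and 6 of 19 were higher at an unadjusted p under 0.05 against 2.02% of all genes. Since Per1 and its relatives had been seen in earlier results of these data, this list is not independent evidence. After Per1, Bhlhe41 (a repressor that competes with CLOCK and BMAL1) had a difference of 0.44, Nr1d1 of 0.50, Dbp (a clock output factor) of 0.48, Per2 of 0.46 and Nr1d2 of 0.34. The positive arm gave values of the opposite sign and none near the threshold, with Bmal1 at -0.13 and Clock at -0.08 (each with an adjusted p of 0.999). Cry2 was at 0.15 and Bhlhe40 at 0.43, and neither reached an unadjusted p of 0.05. The list median was 0.06 under array median centring, where the median of all genes was -0.09. It was 0.06 within the high-BioB set, where that of all genes was 0.002, and 0.08 without cohort 2 saline 1.

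In pretreated rats 6 genes passed against their own saline arrays, all higher (0.0703% of genes), with 465 at an unadjusted p under 0.05 (5.45%), and 4 of them belonged to the clock list. Nr1d2 rose by 0.54 ± 0.07 (adjusted p = 6.63e-05): its saline arrays read 11.07, 11.01 and 11.08 and its 9 pretreated arrays 11.48 to 11.78. Per2 rose by 0.93 (adjusted p = 0.00159), from 9.27, 9.17 and 9.17 to values from 9.47 to 10.46. Both genes separated completely, and both passed in 26 of 26 runs that left out 1 array. Dbp rose by 0.79 (adjusted p = 0.0316) and Bhlhe41 by 0.48 (adjusted p = 0.0282), again without overlap, and the remaining calls were Smim3 at 0.74 (adjusted p = 0.00341) and Vwc2, a secreted BMP antagonist, at 0.77 (adjusted p = 0.0370). Calls were less steady for these, at 25 of 26 runs for Smim3, 22 for Bhlhe41, 18 for Dbp and 15 for Vwc2.

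In naive rats the stimulant effect on these 6 genes had the same sign, and none passed. Nr1d2 had a naive effect of 0.20 (adjusted p = 0.263), with all 9 stimulant arrays above the saline mean, and Per2 of 0.47 (adjusted p = 0.228), also with 9 of 9. The naive saline arrays read 11.31 to 11.53 for Nr1d2 and 9.75 to 10.27 for Per2, overlapping with the stimulant arrays at 11.42 to 11.76 and 10.19 to 10.91. For Dbp the naive effect was 0.30, for Vwc2 0.12, for Smim3 0.06 and for Bhlhe41 0.04. A gene called in pretreated and not in naive rats is not shown to differ, and the tests of the difference for Nr1d2 (adjusted p = 0.501), Per2 (0.999), Dbp (0.999), Bhlhe41 (0.527), Smim3 (0.312) and Vwc2 (0.787) did not pass.

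The promoters of 4 clock genes are shown because these genes moved together in pretreated rats or, for Per1, carried the call. Each window is from RefSeq on build GRCr8, runs from 250 bases before to 50 after the annotated start, and is written 5′ to 3′ on the strand of the gene, with capitals marking a motif. Per1 is at chr10:54304126-54304425 (plus strand), Per2 at chr9:99496944-99497243 (minus), Nr1d2 at chr15:9954784-9955083 (plus) and Bhlhe41 at chr4:180569306-180569605 (minus).
Per1: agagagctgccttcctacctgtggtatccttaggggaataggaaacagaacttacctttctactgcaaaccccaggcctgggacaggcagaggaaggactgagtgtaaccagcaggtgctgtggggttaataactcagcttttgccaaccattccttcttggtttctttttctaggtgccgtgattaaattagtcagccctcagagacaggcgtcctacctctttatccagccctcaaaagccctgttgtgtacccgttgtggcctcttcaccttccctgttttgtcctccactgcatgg
Per2: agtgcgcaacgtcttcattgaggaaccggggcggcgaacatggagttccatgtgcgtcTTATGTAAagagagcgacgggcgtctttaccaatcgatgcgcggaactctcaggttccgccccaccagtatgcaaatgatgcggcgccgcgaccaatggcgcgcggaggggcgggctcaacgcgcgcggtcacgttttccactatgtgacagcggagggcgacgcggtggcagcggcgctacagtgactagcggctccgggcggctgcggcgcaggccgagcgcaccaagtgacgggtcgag
Nr1d2: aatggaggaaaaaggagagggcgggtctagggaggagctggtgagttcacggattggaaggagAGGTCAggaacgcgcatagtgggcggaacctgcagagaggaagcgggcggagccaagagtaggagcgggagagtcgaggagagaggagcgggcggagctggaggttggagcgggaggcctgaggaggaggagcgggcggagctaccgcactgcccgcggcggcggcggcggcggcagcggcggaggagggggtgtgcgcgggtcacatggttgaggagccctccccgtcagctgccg
Bhlhe41: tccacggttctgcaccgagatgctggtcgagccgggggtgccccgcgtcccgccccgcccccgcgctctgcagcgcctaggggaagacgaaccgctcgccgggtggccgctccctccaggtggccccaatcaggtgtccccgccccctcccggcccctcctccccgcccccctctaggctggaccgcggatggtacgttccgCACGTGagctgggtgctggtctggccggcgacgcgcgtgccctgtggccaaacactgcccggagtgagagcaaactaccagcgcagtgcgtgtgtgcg
Searched on both strands were the E-box CACGTG bound by CLOCK and BMAL1, the D-box TTATGTAA bound by DBP, the cAMP response element TGACGTCA and the half-site AGGTCA bound by NR1D and ROR receptors. No motif of the 4 contains another. Per2 held a D-box at -192 from the start, Nr1d2 a half-site at -187, Bhlhe41 an E-box at -48 and Per1 none of the 4 in this window. Of 33469 promoter windows 6.42% held the E-box, 0.893% the D-box, 1.83% the cAMP response element and 16.2% the half-site. Among 16 clock genes with a window, 4 held the E-box (Bhlhe40, Bhlhe41, Nr1d1 and Tef), 1 the D-box, 0 the cAMP response element and 3 the half-site (Bmal1, Nr1d2 and Usp2). A match describes the letters and is neither a bound site nor a cause.

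Genes induced by glucocorticoids, the stress hormones of the adrenal cortex, had the highest median among lists of over 20 tested genes. Of 27 tested members 24 had a difference above 0 and 3 below, the median was 0.21, and 6 were higher at an unadjusted p under 0.05 against 2.02% of all genes, of which only Per1 passed after adjustment. Ddit4, an inhibitor of mTOR signalling, had a difference of 0.64 (adjusted p = 0.527): 2 of 9 naive stimulant arrays and 9 of 9 pretreated arrays lay above their saline means. Angptl4, a lipoprotein lipase inhibitor, had a difference of 0.91 (adjusted p = 0.601), with pretreated arrays from 8.07 to 8.79 above the cohort 2 saline arrays at 7.51, 7.77 and 7.59. Nfkbia, the inhibitor of NF-kB, was at 0.59, the phagocytic receptor Mertk at 0.45 and Plekhf1 at 0.45. The classic targets Fkbp5 (-0.01) and Tsc22d3 (0.10) lay near 0, and Sgk1 was at 0.83 (adjusted p = 0.999). The list median was 0.01 in the naive effect, 0.38 in the pretreated effect and -0.29 between the saline groups. It was 0.39 with the BioB set as a block, 0.61 within the low set, -0.04 within the high set, 0.13 without naive saline 5 and 0.02 without naive saline 4 and 5, so its direction differed between the sets.

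Chaperones and enzymes of endoplasmic reticulum stress had mostly negative values. Of 23 tested members 18 had a difference below 0, the median was -0.17, and 8 were lower at an unadjusted p under 0.05 against 2.45% of all genes, while none passed after adjustment. They were the co-chaperone Dnajb11 (-0.31), Creld2 (-0.33), calreticulin (Calr, -0.51), Hsp90b1 (-0.32), the disulfide isomerases Pdia4 (-0.28) and Pdia3 (-0.22), the transcription factor Xbp1 (-0.26) and the master chaperone Hspa5 (-0.29). For Calr the cohort 2 saline arrays read 10.75, 10.80 and 10.82, above all 9 pretreated arrays (9.41 to 10.59), whereas the naive saline arrays from 9.84 to 10.33 overlapped with the naive stimulant arrays (9.65 to 10.41). The list median was 0.20 between the saline groups and -0.01 between the stimulant groups. Its sign was the same with the BioB set as a block (-0.16), within the high set (-0.14) and within the low set (-0.11).

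**Figure D2:**
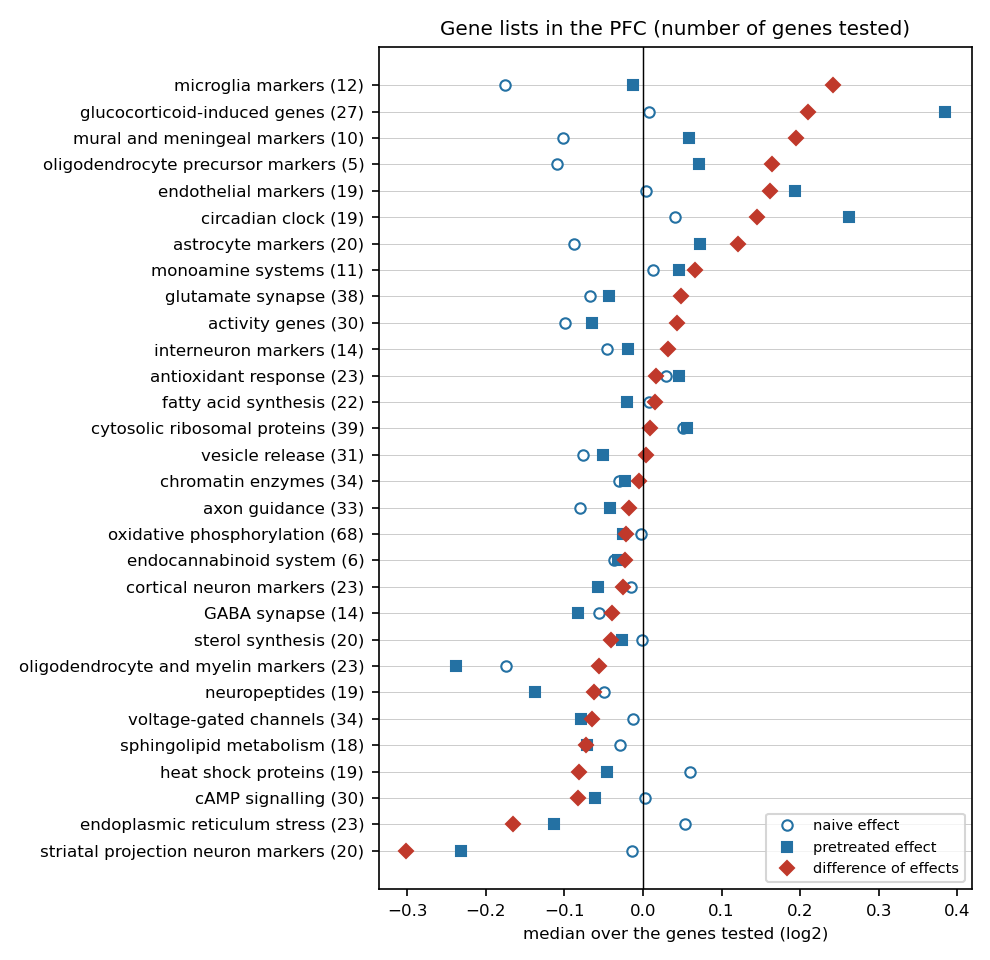
Median over tested genes of the naive stimulant effect, the pretreated stimulant effect and their difference (log2) for the 30 gene lists with at least 5 tested genes. The highest median difference is that of microglia markers (0.24), followed by glucocorticoid-induced genes (0.21), and the lowest that of striatal projection neuron markers (-0.30).

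Markers of other cells gave values that move beside these. In bulk tissue, fewer cells of a type and less RNA per cell cannot be told apart. Markers of striatal projection neurons, which a dissection can include, had 17 of 20 differences below 0 with a median of -0.30, and 7 were lower at an unadjusted p under 0.05 against 2.45% of all genes (Drd1 -0.71, Rarb -0.61, Pde10a, the adenosine receptor Adora2a -0.82, Ppp1r1b, Rgs9 and Foxp2). Drd1 read 10.00, 9.27 and 8.91 on the cohort 2 saline arrays and 8.30 to 9.25 on the pretreated arrays, all 9 below the saline mean. The mean of the 20 markers was 9.30 to 9.91 in cohort 2 saline, 9.13 to 9.52 in pretreated, 9.28 to 9.75 in naive saline and 9.25 to 9.74 in naive stimulant arrays, and the group ranges overlapped. Cohort 2 saline 1 was highest, and without it the list median was -0.06. The cAMP signalling list, which shares Adcy5, Pde10a, Pde1b, Ppp1r1b and Rgs9, had 21 of 30 below 0 (median -0.08), and the part of the striatal markers in it was not tested.

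Of 20 astrocyte markers 19 had a positive difference with a median of 0.12, led by the glutamate transporter Slc1a2 at 0.47 (adjusted p = 0.774). The median was 0.04 under array median centring, where that of all genes was -0.09. For the astrocyte markers it was -0.03 within the high-BioB set, 0.07 without pretreated methylphenidate 1 and 0.18 without naive saline 3. Of 12 microglia markers 10 were positive with a median of 0.24, led by Tmem119 at 0.42 and the complement gene C1qb at 0.44, and none was under an unadjusted p of 0.05; the median was 0.14 without cohort 2 saline 3 and 0.39 without cohort 2 saline 1. Cortical neuron markers had 16 of 23 below 0 with a median of -0.03, and Slc17a7 stood out at 0.54 (adjusted p = 0.954). Another Slc17a7 probe set, of lower signal, was at 0.24 ± 0.22. Of 11 listed blood cell markers 2 were tested: Hbb had a difference of -2.21 (adjusted p = 0.774) and Hba-a3 of -1.57, and without naive saline 4 and 5 the median of both went from -1.89 to -0.80. Myelin markers had a median of -0.06 with Mag at -0.06, and Gfap was at 0.10.

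Activity-regulated genes, which neurons switch on within minutes of firing, had no common direction: 17 of 30 lay above 0 with a median of 0.04. Klf2 (1.00) and the phosphatase Dusp1 (0.63) were higher and Inhba (-0.43) lower at an unadjusted p under 0.05, and none passed after adjustment. Another probe set of lower signal was at 0.14 for Klf2 and at -0.05 for Inhba. Fos had a difference of -0.22, made of effects of -0.83 in naive and -1.05 in pretreated rats. Monoamine genes (7 of 11 above 0, median 0.07), glutamate synapse genes (24 of 38 above 0, median 0.05), chromatin enzymes (17 of 34, median -0.01), sterol synthesis (9 of 20, median -0.04) and oxidative phosphorylation (23 of 68, median -0.02) gave no call. The ceramidase Acer2 had effects of 0.97 in naive and 1.21 in pretreated rats, neither of which passed, and a difference of 0.23, which is within its error of 0.32.

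By stimulant, the differences share both saline groups and are therefore not independent of each other. Methylphenidate gave 2 calls (0.0234%), with 884 genes at an unadjusted p under 0.05 (10.4%), while amphetamine and methamphetamine gave 0 by limma, with 546 (6.4%) and 409 (4.79%) genes at an unadjusted p under 0.05. The methylphenidate calls were Per1, whose difference was 1.41 ± 0.20 (adjusted p = 0.000643), and LOC100911627 at -1.51 ± 0.27 (adjusted p = 0.0196). For Per1 amphetamine gave 0.93 (adjusted p = 0.460) and methamphetamine 0.35 (adjusted p = 0.997). LOC100911627 read 9.24, 9.40 and 9.06 with methylphenidate in naive rats and 8.47, 8.40 and 8.33 after pretreatment, against saline arrays at 8.53 to 9.17 and at 9.76, 9.70 and 8.97. Its methylphenidate arrays thus lay at or above most saline arrays in one cohort and below all of them in the other. Per1 passed for methylphenidate in 26 of 26 runs leaving out 1 array and LOC100911627 in 18, and with the BioB set as a block LOC100911627 was at -1.34 (adjusted p = 0.111). Leaving out naive saline 4 and 5 raised the methylphenidate count from 2 to 213, and the replicate block, which gives those 2 arrays terms of their own, raised it to 220. Those 2 are the only saline arrays of the low-BioB set, which holds all naive methylphenidate arrays. Both runs thus set naive methylphenidate against high-BioB saline only, and pretreatment and set cannot be told apart in these counts.

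**Figure D3:**
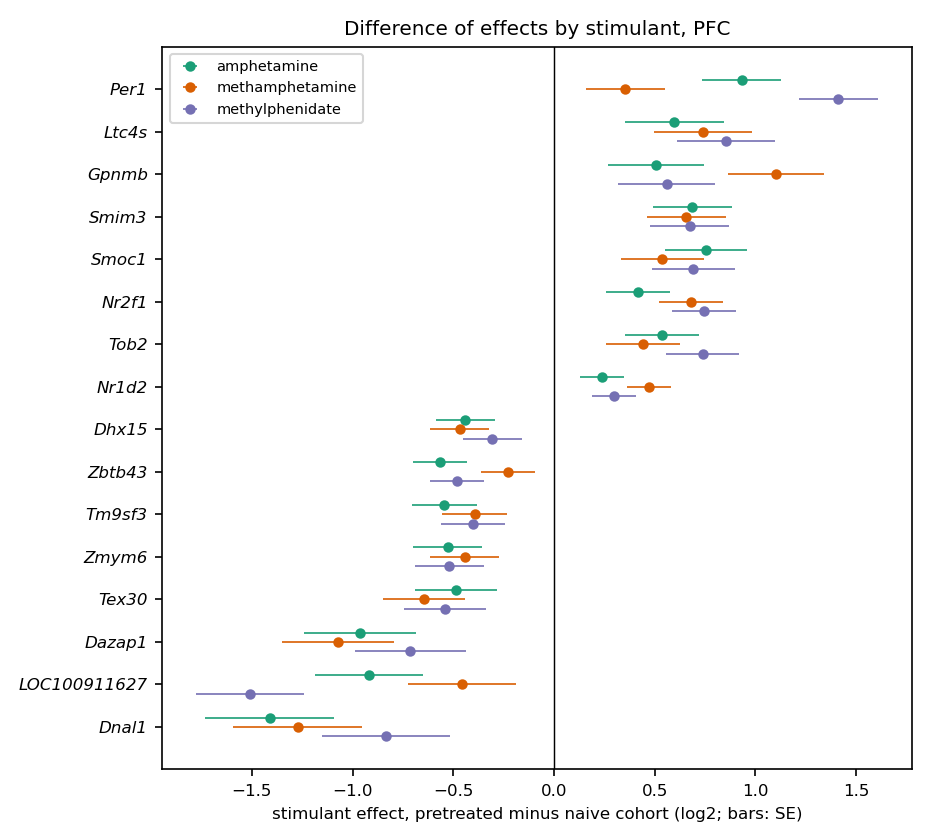
Difference of effects (pretreated minus naive, log2, with bars of 1 SE) for the 16 genes with the smallest p, 8 in each direction, separately for amphetamine, methamphetamine and methylphenidate. Per1 runs from 0.35 with methamphetamine to 1.41 with methylphenidate; the 3 values of a gene share the same saline arrays.

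For amphetamine the genes with the smallest p were Per1, Mertk (0.87) and the sarcospan gene Sspn (0.66) above 0 and Dnal1 (-1.41), Zbtb43 (-0.56) and the kinase gene Hunk (-1.11) below, and none passed. For methamphetamine they were Angptl4 (1.64), Elavl1 (1.70) and Gpnmb (1.10) above 0 and Dnal1 (-1.27), the splicing kinase Clk1 (-0.79) and Dazap1 (-1.07) below, and none passed. Dnal1 was thus below 0 with both amphetamines and at -0.84 with methylphenidate.

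Whether the difference of effects was the same for the 3 stimulants was tested with an F test, in which the saline means cancel and the saline arrays enter only the error. It called 25 genes (0.293%), with 1296 at an unadjusted p under 0.05 (15.2%). In all 25, methamphetamine held the extreme value, lowest in 12 and highest in 13, with amphetamine and methylphenidate on 1 side of it. Naive methamphetamine was also the one naive stimulant group in the high-BioB set. With the BioB set as a block 0 genes passed (537 at an unadjusted p under 0.05). The set term of that block rests on the 5 naive saline arrays, the only group in both sets. Among the naive stimulant arrays themselves, stimulant and set cannot be told apart. Within the low-BioB set, which compares only amphetamine with methylphenidate, 0 passed (344). That test could not return calls in which methamphetamine was the extreme. The count of the full F test was 1 without naive methamphetamine 1 and 40 without naive methamphetamine 3.

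Elavl1, the RNA-stabilising protein HuR, gave the smallest p of that test (adjusted p = 8.99e-05), with differences of -1.29 for amphetamine, 1.70 for methamphetamine and -0.43 for methylphenidate. It read 9.31, 8.55 and 9.46 on the naive methamphetamine arrays, below all other arrays of the 26, including the naive saline arrays of the same set. After methamphetamine pretreatment it read 10.64, 10.70 and 10.85. With amphetamine it went the other way, from 10.68, 11.46 and 11.28 in naive to 9.82, 9.63 and 9.88 in pretreated rats. With the BioB set as a block Elavl1 had an adjusted p of 0.0742. The other named genes were the lipid transfer protein Pitpnm3 (0.29, -0.41 and 0.41 for amphetamine, methamphetamine and methylphenidate), the semaphorin Sema4b (0.05, -0.42 and 0.85) and Ptprdl (-0.25, 0.45 and -0.59), each with an adjusted p of 0.0180. The call was also met by Arc, a synaptic activity gene (0.73, -1.54 and 0.97, adjusted p = 0.0379), named after its values were seen, and by Per1 (adjusted p = 0.0445). Arc read 9.98, 9.14 and 9.60 on the naive methamphetamine arrays against 7.10, 7.65 and 7.38 on the pretreated ones, which did not overlap. Fos had differences of 0.29, -1.72 and 0.75 and an adjusted p of 0.0599.

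**Figure D4:**
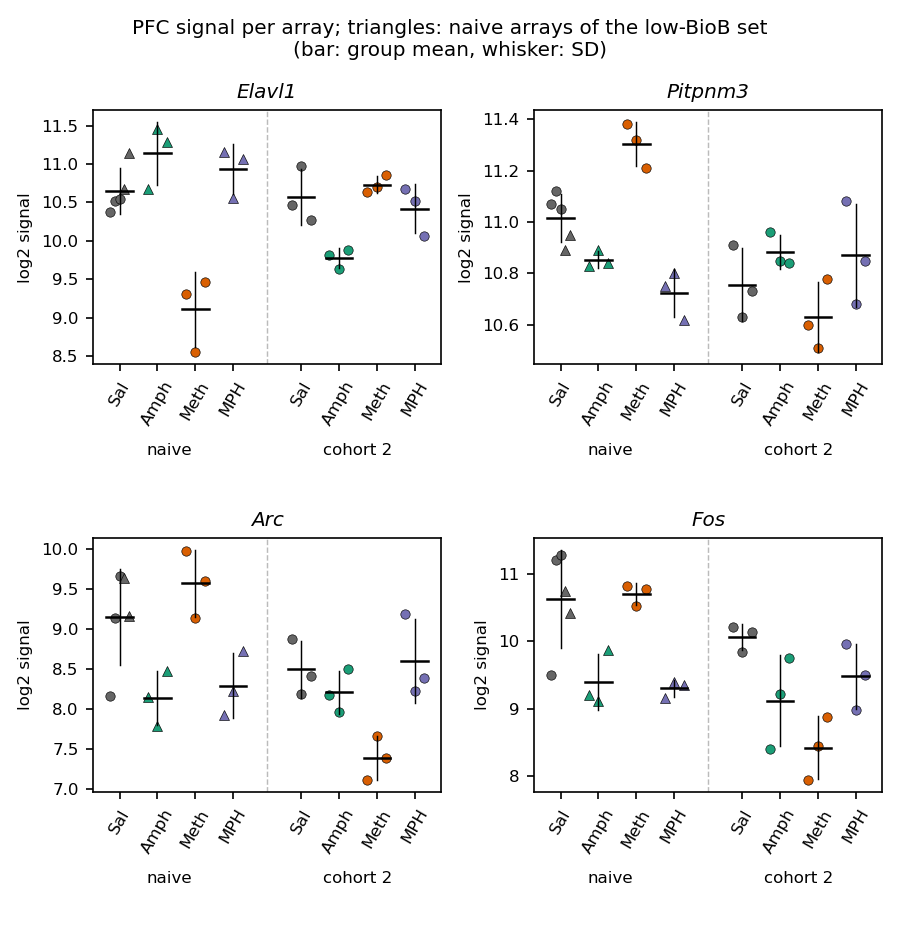
Log2 signal of Elavl1, Pitpnm3, Arc and Fos on the 26 prefrontal arrays by group, with triangles for arrays of the low-BioB set, circles for the others and lines for the group mean ± SD. Elavl1 lies at 8.55 to 9.46 on the naive methamphetamine arrays, lower than on any other array shown, and Arc at 7.10 to 7.65 on the pretreated methamphetamine arrays, also its lowest values.

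Amphetamine and methamphetamine, matched in dose and differing by the N-methyl group, were also compared alone, as 1 pair of related compounds and as a test added after the values were seen. The difference of effects differed between them for 1 gene of 8530 (0.0117%), Elavl1, lower by -2.99 ± 0.35 for amphetamine (95% interval -3.71 to -2.26, adjusted p = 2.85e-05), with 1298 genes at an unadjusted p under 0.05 (15.2%). For Per1 this difference was 0.58 (95% interval 0.16 to 1.00, adjusted p = 0.190) and for Arc 2.27 (1.24 to 3.30, adjusted p = 0.0624). Within naive arrays 124 genes differed between the compounds (1.45%), where the BioB set differed too. Within pretreated arrays, all of 1 set, 0 passed by limma and 365 were at an unadjusted p under 0.05 (4.28%). There Per1 differed by 0.15 (95% interval -0.15 to 0.45), Elavl1 by -0.95 (-1.47 to -0.44) and Arc by 0.83 (0.10 to 1.56), so these intervals do not show that the compounds act alike. For methylphenidate, whose infused dose was not matched, the values above stand side by side only.

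The saline arrays alone differed between cohorts for 159 genes (1.86%), 45 higher and 114 lower in cohort 2. Pde1a, a calmodulin-dependent phosphodiesterase (1.70), Dnal1 (1.03), Tmed5, a cargo protein of the secretory pathway (0.95), and the axonal motor Kif1a (0.88) were the highest. Klf2 (-1.22), Per1 (-0.99), Zbed3 (-0.97) and Per2 (-0.85) were the lowest. Of the 19 clock genes 4 were called lower, namely Per1, Per2, Nr1d2 (-0.35) and Cry2 (-0.40), against 1.34% of all genes. Centring each array on its median moved the median of all genes in this comparison by over 0.1, to 0.11, and turned the split of calls to 66 higher and 19 lower; Per1 (-0.88, adjusted p = 0.00391) and Per2 (-0.74, adjusted p = 0.0261) still passed below that median and Nr1d2 and Cry2 did not. The stimulant arrays differed between cohorts for 591 genes (6.93%), 173 higher and 418 lower, in the test added later. Pde1a (1.42) and Kif1a (0.99) differed in the same way there and left differences of effects of -0.28 and 0.11, whereas for Klf2 the stimulant arrays were at -0.22. With each array centred on its median the stimulant split was 141 higher and 236 lower. The saline count was 8 without cohort 2 saline 2 and 364 without naive saline 4, and it was 1095 with the BioB set as a block and 15 within the low set.

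The same contrast in the striatum, fitted over both regions, gave 143 genes (1.68%), 65 higher and 78 lower. The prefrontal count of 1 came from another fit, over the 31 prefrontal arrays, so these counts are not on equal terms. The difference between regions was itself tested and called 0 genes by limma, with 296 at an unadjusted p under 0.05 (3.47%). Per1 had a difference of effects of 0.90 in the prefrontal cortex and 0.22 in the striatum, and the gap of 0.67 ± 0.29 had an adjusted p of 0.9995. Dnal1 (-1.17 and -1.18), Smim3 (0.67 and 0.57), Nr2f1 (0.61 and 0.47) and LOC100911627 (-0.96 and -0.75) had values of the same sign in both regions. Same-numbered arrays of a group may come from the same rats: the deviations of their signals from the group means had a median correlation of 0.199 between regions over 26 pairs, 20 of them above 0.1. With these arrays paired, a fit added after the values were seen, limma again called 0 genes (451 at an unadjusted p under 0.05), and the Per1 gap was 0.67 ± 0.28 (adjusted p = 0.883). The widest gaps by p were in Odc1, the rate-limiting enzyme of polyamine synthesis (-0.07 in PFC and 0.49 in striatum), Fam89b (-0.32 and 0.26), Tbc1d16 (-0.10 and 0.71), the axon guidance receptor Robo2 (-0.02 and -0.61), the kinase Tec (0.50 and -0.63) and the organic cation transporter Slc22a3, which carries monoamines (0.56 and -0.46), and none passed.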

How the data were processed

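The deposited values are MAS5 signal intensities, 1 per probe set and array, per the submitters' processing notes, which give no version; RNA was extracted with Trizol, labelled with biotin and hybridised to 1-colour rat arrays of 31099 probe sets, per the labels' protocols. Of these, 20832 had 1 gene symbol in the platform annotation, 436 several and 9831 none. Each intensity was floored at 1 and log2-transformed with no further normalization, and the probe set with the highest mean stood for each of 14218 genes; the 40% of genes with the lowest mean over the 31 prefrontal arrays were left out, which left 8530.

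With limma 3.58.1 in R 4.3.3, 1 mean per group was fitted over the 31 prefrontal arrays (10 groups, 21 residual degrees of freedom, including 5 arrays conditioned with 1.25 mg/kg that enter only the error), with eBayes moderation using the intensity trend and Benjamini-Hochberg adjustment over all genes. The threshold was an adjusted p of 0.05. On simulated data for the all-stimulant difference (8530 genes), 94% of genes changed by 1 (log2) and 100% changed by 2 were recovered. There 18 unchanged genes were also called. The share recovered on the measured arrays was not tested. Genes were named by rule: past the threshold by size or, where few passed, the 8 with the smallest p in each direction, with smaller numbers for each stimulant, the F test, the saline and region comparisons and each of 32 gene lists, and some added after their values were seen (Vwc2, Arc, Nr1d1, Bhlhe40, Cry2, Bmal1, Clock, Hspa5, Fkbp5, Tsc22d3, Sgk1 and Adora2a, and further list members given with a count). The contrast, the members and the lists were chosen with earlier results of these data known. Alternatives changed the normalization, constant, filter, probe sets, moderation, arrays, blocks and sets, and left out each array. Same-numbered arrays were not paired (median correlation of deviations 0.0485 over 84 pairs, 33 of them above 0.1). For arrays of different number the median was -0.0219 over 210 pairs, 55 of them above 0.1.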

Additional observations from a re-analysis of the deposited data

Results flagged for a closer look

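Among 136 named genes, 2 had a naive saline array far from the other 4. For Kcnh3, a potassium channel gene, naive saline 1 read 10.32 (log2 signal) against 9.98 to 10.07, and for Rtn4r, the Nogo receptor, naive saline 5 read 9.535 against 9.78 to 9.85. Chance marks about 1 in 20 such groups, or 6.8 of 136.

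Stimulant effects differed between pretreated and naive rats, by the test of the difference, for Per1 over all stimulants (0.8988), for Per1 with methylphenidate (1.412) and for LOC100911627 with methylphenidate (-1.509). The difference was unequal among the 3 stimulants, by the F test, for Elavl1 (adjusted p = 8.994e-05), Pitpnm3, Sema4b and Ptprdl (each adjusted p = 0.01796), Arc (adjusted p = 0.03793) and Per1 (adjusted p = 0.04449), where methamphetamine, the only naive stimulant in the high-BioB set, held the extreme value.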

How the results depend on the processing

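In the all-stimulant difference no named gene with a call turned its sign. The signs of calls in the other comparisons were not followed through all settings. The Per1 call over all stimulants (1 gene) was absent, with 0 genes called, under array median centring, with the 1.25 mg/kg groups included and within the high-BioB set. The count was 2 over all probe sets, with only the 26 arrays (Nr2f1 added) and with the BioB block (Hbb added), 6 within the low-BioB set, 3 without naive saline 4 and 5 (chosen after seeing the data), and 0 to 2 leaving out 1 array. The replicate block called 1 gene, Anxa4, and not Per1. For amphetamine (0), the replicate block called 10, the BioB block 1 and the low set 1, and leave-one-out runs 0 to 1. For methamphetamine (0), all probe sets called 1, the 1.25 mg/kg groups 2 and leave-one-out runs 0 to 2. For methylphenidate (2), all probe sets called 5, the replicate block 220, the runs without naive saline 4 and 5 213, and leave-one-out runs 1 (without naive saline 2) to 5 (without naive saline 4). Among stimulants (25), quantile normalization called 15, median centring 60, no filter 6, all probe sets 9, the 26 arrays alone 7, the 1.25 mg/kg groups 127, the replicate block 96, the BioB block 0, the low set 0, without naive saline 4 and 5 79, and leave-one-out runs 1 to 40. The low set there compares only amphetamine with methylphenidate. For the naive effect (1), quantile normalization, the 60% filter, the 26 arrays alone, the 1.25 mg/kg groups and the low set called 2 each, the high set 3, the replicate block 378, without naive saline 4 and 5 375, and leave-one-out runs 0 (without naive saline 1) to 3 (without pretreated methylphenidate 1). For the pretreated effect (6), all probe sets and the low set called 12, the replicate block 11, the BioB block 10, the high set 2, and leave-one-out runs 2 (without cohort 2 saline 3) to 8 (without naive amphetamine 3). For saline between cohorts (159), median centring called 85, all probe sets 251, the replicate block 1077, the BioB block and the high set 1095, the low set 15, without naive saline 4 and 5 1026, and leave-one-out runs 8 to 364. The region difference was not run for the settings with the 26 arrays alone or with the 1.25 mg/kg groups. It called 0 in each of the other settings and with same-numbered arrays paired across regions. The titles number the arrays within a group and name no pairing across groups, which was not tested beyond the correlations above. The replicate block gives naive saline 4 and 5 terms of their own. Like the runs without those arrays, it sets the low-BioB naive amphetamine and methylphenidate arrays against high-BioB saline only. The cause of the other shifts was not tested. Of the 136 named genes 33 changed sign in some setting without a call.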
